A study of Mus musculus with 6 samples.

Results

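Epidermal growth factor (EGF) family signalling was followed through 9 genes: the ligand genes Areg (amphiregulin), Ereg (epiregulin), Hbegf (heparin-binding EGF-like growth factor), Btc (betacellulin), Tgfa (transforming growth factor alpha) and Nrg1 (neuregulin), and the receptor genes Egfr, Erbb2 and Erbb3. They are 9 of the 21485 genes that all 6 deposited matrices hold, and all 9 were found in them. The genes were listed by family and selected on their level per sample (CPM, the unique molecular identifiers, or UMIs, of a gene per 1000000 UMIs) and share of cells with a UMI, which were already known, the high Areg level of an old population among them. Levels per sample and old-to-young differences of the 9 genes are therefore given as a description, without a test, and tests are given for contrasts between cells inside each population, which the choice did not use.

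The cells were muscle-derived stem/progenitor cells (MDSPCs), a slowly adhering fraction of mouse skeletal muscle obtained by repeated plating and then expanded on collagen in serum-rich proliferation medium. Populations Y1-1, PtC5 and FT-QU, from young mice, are young replicates 1, 2 and 3, and populations O1-1, NA-f2 and NA-f3, from old mice, are old replicates 1, 2 and 3. All 6 were grown in the same kind of medium without a further treatment, and no genotype, strain, sex or age in months is stated in the labels. Each population is 1 sample whose cells were captured in droplets and sequenced from the 3′ ends of their RNA. The labels call the 3 populations of each age biological replicates but do not say whether each is 1 clone or from 1 mouse. The names NA-f2 and NA-f3 share a stem, and the labels do not say whether these populations have a common source.

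EGF-family ligands are made as membrane proteins whose outer part is cut free by proteases of the ADAM family and then binds receptors on the same or on neighbouring cells. Amphiregulin and transforming growth factor alpha bind EGFR, betacellulin, epiregulin and heparin-binding EGF-like growth factor bind EGFR and ERBB4, and neuregulin binds ERBB3 and ERBB4. ERBB2 has no known ligand of its own and acts as a partner, while ERBB3 has little kinase activity and signals in pairs with other receptors. In skeletal muscle, neuregulin and ERBB receptors are known for their part in myotube and neuromuscular synapse biology, and amphiregulin for its release by regulatory T cells during repair.

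In build GRCm38, Ereg (chromosome 5, 91074622 to 91093646, plus strand), Areg (91139599 to 91148432, plus strand) and Btc (91357261 to 91402994, minus strand) lie in 1 group with a further ligand gene, Epgn (91027464 to 91035215, plus strand). Tgfa lies on chromosome 6 (86195223 to 86275719) and Erbb3 on chromosome 10 (128567523 to 128589652). Egfr (16752203 to 16918158) and Erbb2 (98412470 to 98437716) are both on chromosome 11. No gene on the same strand overlapped any of the 9 members. Each value covers the whole gene, read from its 3′ end, and not a given exon. The 250 bases before the annotated start are shown for 3 members, from RefSeq on GRCm38.p6, 5′ to 3′ on the strand of the gene. They are Areg, the gene that led an old population, its neighbour Btc, whose level did not follow it, and Egfr, the receptor that differed most between the groups. Capitals mark the 8 letters TGACGTCA, a cyclic AMP response element, on either strand.
Areg, chr5:91139349-91139598, plus strand: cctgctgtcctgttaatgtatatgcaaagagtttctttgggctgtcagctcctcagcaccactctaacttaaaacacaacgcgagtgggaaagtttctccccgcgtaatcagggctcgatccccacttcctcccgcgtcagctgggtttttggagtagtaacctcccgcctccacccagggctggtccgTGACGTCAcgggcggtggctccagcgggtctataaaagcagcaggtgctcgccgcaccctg
Btc, chr5:91402995-91403244, minus strand: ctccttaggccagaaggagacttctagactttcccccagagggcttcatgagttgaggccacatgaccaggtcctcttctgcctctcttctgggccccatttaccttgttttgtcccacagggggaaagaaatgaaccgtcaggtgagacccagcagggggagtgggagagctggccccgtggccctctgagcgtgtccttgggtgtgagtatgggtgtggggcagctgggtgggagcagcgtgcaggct
Egfr, chr11:16751953-16752202, plus strand: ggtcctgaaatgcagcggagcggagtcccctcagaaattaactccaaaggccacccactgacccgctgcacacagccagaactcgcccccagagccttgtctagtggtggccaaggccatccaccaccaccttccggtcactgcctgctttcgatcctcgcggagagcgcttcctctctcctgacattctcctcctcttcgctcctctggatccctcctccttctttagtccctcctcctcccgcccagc

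The Areg window held TGACGTCA once, 61 bases before the start, and these letters are in 1.55% of the 32851 promoter windows of this length. The Btc and Egfr windows did not hold those letters. AP-1 letters (TGACTCA or its reverse complement, in 4.46% of windows) and TEAD letters (GGAATG or its reverse complement, in 12.6%) were in none of the 3 windows. The E-box letters CANNTG, present in 66.2% of windows, occurred 2 times for Areg, 3 times for Btc and 0 times for Egfr. A match is a description of letters and not evidence of binding. Windows for Tgfa and Erbb2 were also read. Neither held the cyclic AMP or AP-1 letters, each had 1 E-box, and the Erbb2 window had TEAD letters once, 88 bases before the start. Ereg, Hbegf, Nrg1 and Erbb3 had no entry.

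After leaving out barcodes with fewer than 1000 UMIs, fewer than 500 genes or a mitochondrial share of 15% or more, 61673 of 62849 cells remained, between 8674 and 12541 per population. Median depth was between 13001 and 19951 UMIs per cell. Young replicate 1 and old replicate 1 had been counted on a shorter gene list (21849 entries) than the other 4 samples (32285 entries), so all values here use the shared genes. CPM totals are likewise taken over the shared genes of a sample. Any pair of samples shared between 23 and 35 barcode sequences, at most 0.369% of the smaller sample. The 8 myogenic markers (Pax7, Myf5, Myod1, Myog, Des, Cdh15, Chrna1 and Msc) summed to 2165, 1643 and 3405 CPM in young replicate 2 and old replicates 2 and 3, but to 316, 190 and 255 CPM in young replicates 1 and 3 and old replicate 1. Pax7 had 5 UMIs in young replicate 3 and Myf5 had 1 in young replicate 1, so each of these populations nearly lacked a marker of myogenic progenitors. Myod1 was present in them, at 45.7 CPM in young replicate 3 and 50.8 CPM in young replicate 1. The pan-leukocyte marker Ptprc had 0 to 8 UMIs per sample, the epithelial marker Epcam 5 to 51 and the Schwann cell marker Sox10 0 to 3, but other markers of these lists were present. Cd68, an immune marker found in other cells too, had 1.09 to 7.33 CPM, Csf1r reached 3.14 CPM in young replicate 2, and Mbp of the Schwann cell list 3.82 CPM there. The 6 fibro-adipogenic markers summed to 206 to 434 CPM per sample, more than the myogenic markers in young replicate 3 (286 against 190 CPM). Gsn, which is not limited to these cells, held 149 to 317 CPM of it, Col3a1 13.3 to 132 CPM and Smoc2 1.12 to 103 CPM, both highest in young replicate 2, whereas Pdgfra, the defining marker, had at most 1.97 CPM and Lum at most 1 UMI. Other single markers stood out: Tek at 58.9 CPM and Ngfr at 19.9 CPM in young replicate 2, and Krt18 at 7.24 and 11.6 CPM in old replicates 2 and 3.

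Areg, the EGFR ligand that led an old population, had 37.0, 10.8 and 4.66 CPM in young replicates 1, 2 and 3 and 113, 8.36 and 31.9 CPM in old replicates 1, 2 and 3. Old replicate 1 stood 3.06 times above the next sample, young replicate 1, and 24.3 times above the lowest, young replicate 3. After scaling by the trimmed mean of M values, old replicate 1 and young replicate 1 were closer, at 102 and 43.6 CPM. The groups overlapped, since old replicate 2 lay below 2 of young populations. Group means were 17.5 ± 17.2 CPM in young populations and 51.2 ± 55.0 CPM in old populations (SD, n = 3 each). The highest samples, old replicate 1 and young replicate 1, are also the pair on the shorter list. Within that list the old sample was 3.06 times the young sample. Within the longer list the ratio of old to young was 2.61 from UMIs pooled over the samples of a group. The group means there were 20.1 CPM in old and 7.76 CPM in young populations. The part of the list in the level was not tested.

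Neighbours in the Areg order were close. Young replicate 1 and old replicate 3 were apart by 37.0 against 31.9 CPM, yet the share of cells with an Areg UMI, after thinning each cell to 5000 UMIs, was 13.9% (exact 95% interval 13.2 to 14.7) and 13.6% (13.0 to 14.2). Young replicate 2 and old replicate 2 had thinned shares of 4.61% (4.22 to 5.03) and 3.66% (3.28 to 4.09). The highest and lowest shares were 34.4% (33.4 to 35.3) in old replicate 1 and 2.13% (1.87 to 2.43) in young replicate 3. Without thinning they came to 29.1%, 14.9% and 6.69% in young populations and 55.4%, 13.1% and 31.2% in old populations. These intervals cover counting error only. No cell class that should lack Areg could be named in these cultures, and free RNA in the droplets was not measured, because the matrices hold no barcode under 500 UMIs.

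Ereg, which encodes a ligand of EGFR and ERBB4 beside Areg, had 202, 2 and 0 UMIs in young populations (1.51, 0.0103 and 0 CPM). In old populations it had 3053, 412 and 495 UMIs (20.2, 2.32 and 2.71 CPM). Each old sample lay above each young sample, and old replicate 1 was 7.44 times above the next. No cell of young replicate 3 had an Ereg UMI, which allows a share of up to 0.0278% of cells with a UMI. Within the shorter list the old sample was 13.3 times the young sample (interval of the count ratio 11.6 to 15.5, which covers counting error in 2 libraries only). After scaling by the trimmed mean of M values these 2 samples were closer, at 18.2 and 1.78 CPM, a change the interval does not cover. Within the longer list the ratio from pooled UMIs was 481, with an interval of 133 to 3980 because it rests on 2 young UMIs.

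Hbegf, whose product is also known as the diphtheria toxin receptor, lies on chromosome 18 (36504927 to 36515805, GRCm38). It had 82.5, 14.3 and 25.7 CPM in young populations and 99.6, 9.38 and 17.5 CPM in old populations. Both groups spanned low and high values, with means of 40.8 ± 36.5 and 42.2 ± 49.9 CPM (SD, n = 3 each). Old replicate 1 was highest and young replicate 1 next, an order that scaling by the trimmed mean of M values (TMM) turned round, to 89.8 and 97.3 CPM. The thinned shares of cells in these 2 samples were 33.6% and 29.1%.

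Btc, another ligand gene of the chromosome 5 group, had 3.44, 3.84 and 1.51 CPM in young populations and 2.96, 0.839 and 1.26 CPM in old populations. Its order differed from that of Areg and Ereg: old replicate 1 was neither highest nor far from young replicate 1. The highest sample was young replicate 2, or young replicate 1 after TMM scaling (3.85 and 4.05 CPM).

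Tgfa had 0.921, 0.0414 and 1.43 CPM in young populations and 4.48, 1.90 and 2.97 CPM in old populations. The groups did not overlap, and young replicate 2 was far lower than the others, with 8 UMIs in all its cells. Without young replicate 3 the fitted log2 difference rose from 1.87 to 3.94, while without young replicate 2 it was 1.31. Young replicate 3 also had a median log2 shift of 0.46 over 462 genes of chromosome 6, which carries Tgfa, for which the values were not corrected.

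Nrg1, the neuregulin gene, lies on chromosome 8 (31814551 to 32884029, GRCm38). It had 17.4, 10.9 and 30.7 CPM in young populations and 53.0, 19.99 and 9.89 CPM in old populations. The extremes were both old samples, so the groups overlapped fully. A second entry named Nrg1 on the shorter list had no UMI and was not used.

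Egfr, the receptor shared by Areg, Ereg, Hbegf, Btc and Tgfa products, had 3.99, 1.98 and 2.23 CPM in young populations. In old populations it had 23.8, 5.91 and 10.6 CPM. All 3 old samples lay above all 3 young samples, with group means of 2.73 ± 1.09 CPM and 13.4 ± 9.27 CPM (SD, n = 3 each). The ratio of old to young was 5.96 on the shorter list and, from pooled UMIs, 3.94 on the longer list. Old replicate 2 had a median log2 shift of 0.39 over 777 genes of chromosome 11, which carries Egfr and Erbb2. In old replicates 1 and 3 the same shift was -0.05 and -0.07.

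Erbb2, the partner receptor, had the narrowest range: 5.37, 3.77 and 10.9 CPM in young populations and 6.65, 8.81 and 7.84 CPM in old populations. Its highest and lowest samples, 2.88 times apart, were both young. Erbb3, the neuregulin receptor, had 0.966, 5.09 and 1.47 CPM in young populations and 1.44, 2.43 and 16.3 CPM in old populations. Old replicate 3 stood 3.21 times above the next sample, and it was also the sample with the most Myog-positive cells (56.0%). Its Erbb3 level was also the highest of the samples inside Myog-positive cells (25.0 CPM) and inside the other cells (4.00 CPM). The part of the Myog-positive share in the level was not tested. Without old replicate 3 the log2 difference between old and young was -0.19, against 1.14 with it.

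**Figure D1:**
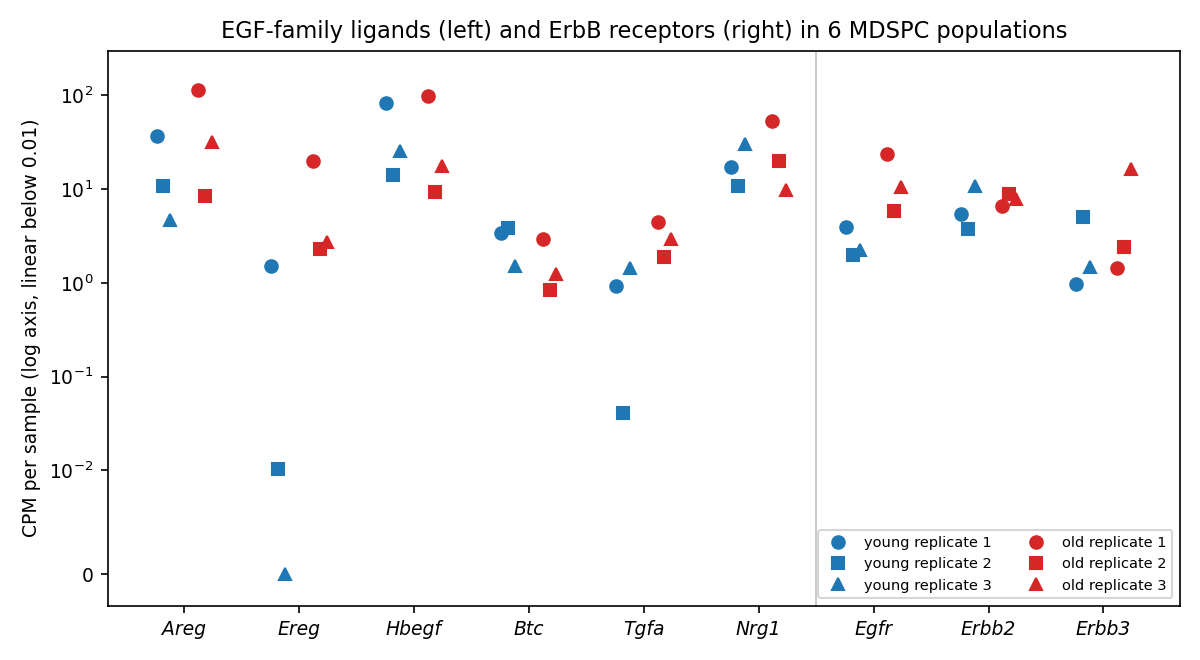
CPM of the 6 ligand genes and 3 receptor genes (horizontal axis) in each of the 6 populations; the vertical axis is logarithmic above 0.01 CPM and linear below, with young samples in blue and old in red. Old replicate 1 is the highest point for Areg (113 CPM), Ereg, Hbegf (by unscaled CPM), Tgfa, Nrg1 and Egfr, and the old points lie above all young points for Ereg, Tgfa and Egfr.

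Across the 9 genes, Ereg, Tgfa and Egfr separated the groups without overlap, each higher in old populations, and none was lower without overlap. Over all 14512 genes tested, 5.02% lay higher in old populations without overlap and 0.903% lower. The fit over all genes (edgeR quasi-likelihood test, p-values adjusted by Benjamini-Hochberg) had 1 call, or 0.00689%. Its outcome for the 9 genes is not given, since levels per sample chose them. The fitted log2 differences, old over young, were 1.38 for Areg, 2.10 for Egfr and 0.12 for Nrg1, and -1.07 for Btc. Their SEs derive from the withheld test and are not given either. Leaving out 1 sample moved Areg between 0.58 (without old replicate 3) and 1.81 (without young replicate 2), and Btc between -1.34 (without young replicate 3) and -0.49 (without young replicate 2). Nrg1 turned sign, between -0.41 (without young replicate 1 or old replicate 1) and 0.77 (without young replicate 3). When either sample of the shorter list is left out, the gene list term takes up the other. Such a fit then rests on the longer list and does not show the weight of 1 sample. The Ereg value of 6.65 depends on the prior count and is no measure of its size.

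No gene of the other pathway lists was called between the age groups. Of 6 other ligand and receptor genes, 7 genes for ligand release, 15 for adaptors and kinases, 15 negative regulators and 10 ERK-responsive genes, all were tested and edgeR called 0, with 0 at an unadjusted p under 0.05 and 0 called by DESeq2. Medians of the log2 differences were 0.16, 0.04, -0.14, -0.09 and 0.11, compared with -0.01 over all genes. The ligand gene Nrg3 (1.79, SE 0.76) and the rhomboid protease gene Rhbdl2 (1.11, SE 0.61) had the highest values among the first 2 lists, and Adam12 was at -0.84 (SE 1.25). The Nrg3 value rests on few counts, with 11, 9 and 12 UMIs in young populations and 81, 46 and 10 in old ones. In the other lists, values of larger size were Braf at -0.37 (SE 0.31), Mapk3 at -0.33 (SE 0.28), Lrig3 at -0.74 (SE 0.52) and Dusp5 at -0.67 (SE 0.46). Among the ERK-responsive genes they were Egr1 at 0.69 (SE 0.45) and Etv4 at -0.57 (SE 0.66). Erbb4, the fourth receptor, had 0.247, 1.11 and 2.31 CPM in young populations and 0.251, 0.603 and 1.17 CPM in old populations. Its log2 difference was -0.68 (SE 0.62, edgeR adjusted p = 1.00).

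Within old replicate 1, Areg was spread over many cells but unevenly. At 5000 UMIs per cell, 34.4% of 9906 cells had an Areg UMI, compared with 44.9% if the same UMIs were spread evenly. The top 10% of cells held 53.0% of the Areg UMIs, and the variance over the mean was 2.09. The deepest count in a single cell, without thinning, was 46 UMIs. Ereg UMIs were in 12.3% of the cells with an Areg UMI and in 7.05% of those without, and Egfr UMIs in 12.5% and 8.81%. Hbegf was closer to even, at 36.2% and 32.3%. In young replicate 1, Hbegf was in 35.6% of cells with an Areg UMI and in 28.0% of those without.

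Genes whose level followed Areg across the 6 samples, by Pearson's r of log2(CPM + 1), were led by Serf1 (0.99), Rgs16 (0.98), Mrc2 (0.98), Tll1 (0.97), S100a7a (0.97) and S100a13 (0.96). With 6 points, 53 of 10635 genes had an r over 0.9, and 2 of the points come from the shorter gene list and 4 from the longer, so this is a description only. Rgs16, which encodes a regulator of G protein signalling, had 24.0, 7.22 and 1.83 CPM in young populations and 49.6, 5.02 and 12.9 CPM in old populations, the same order as Areg. Among the members, Ereg (0.85), Egfr (0.82) and Hbegf (0.74) ranked 131, 216 and 432, and Erbb2 had -0.31. Across the 9906 cells of old replicate 1, the genes most like Areg were Ptgs2 (0.22), which encodes the inducible prostaglandin synthase, Pcdh7 (0.17), the immediate early gene Ier3 (0.17), Ank, Cd9, Igfbp7, Pla2g4a, Ggct, Cd34 and Rbpj (0.16 to 0.14). These values over cells are weak, and all the cells come from 1 library.

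Old replicate 1 led the other samples at Areg and at its neighbour Ereg. The log2 difference between old replicate 1 and the mean of the others, on the log2(CPM + 1) scale, was 2.92 for Areg and 3.41 for Ereg, but 0.42 for Btc. Epgn, the epigen gene and the fourth family ligand gene there, had few counts, with 7, 11 and 32 UMIs in young populations and 12, 31 and 15 in old ones. Apart from the family members, 17 genes within 2 Mb of Areg had a mean of 5 CPM or more. Their median difference was 0.01, with a range from -1.16 (Stbd1) to 1.87 (Cxcl1, a chemokine gene). The median over 611 genes of chromosome 5 was 0.02 in old replicate 1 and 0.31 in old replicate 2.

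The next comparison asked how the 9 genes differ between cells with a UMI of Myog, the transcription factor of muscle differentiation, and the other cells of the same population. A single Myog UMI may come from free RNA in the droplet, which was not measured, so the class is a count rule and not a cell type. With a rule of 2 or more Myog UMIs, for which old replicate 1 had too few cells, the 9 calls below were also made. Cells with at least 1 Myog UMI numbered 424, 3180 and 1090 in young populations and 117, 1958 and 7022 in old populations. Their counts were summed per sample and compared with those of the Myog-negative cells of that sample, with the sample as a block. All 6 ligand genes and Egfr were lower in Myog-positive cells, and Erbb3 and, by a small margin, Erbb2 were higher. In the fit, 9 of 9 members were called, 7 lower and 2 higher, while 18.9% of 13577 genes were called lower and 13.6% higher (32.5% in all, edgeR quasi-likelihood test, Benjamini-Hochberg adjustment over all genes).

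Erbb3 showed the largest difference of the 9. In Myog-negative cells it had 0.307, 0.972 and 0.868 CPM in young populations and 1.31, 0.750 and 4.00 CPM in old populations. In Myog-positive cells it had 14.1, 14.6 and 6.35 CPM in young populations and 13.0, 7.90 and 25.0 CPM in old populations. Every Myog-positive value exceeded every Myog-negative one, and the ratio within a sample was between 6.26 and 46.1. The log2 fold change was 3.52 (SE 0.36, edgeR adjusted p = 0.00192), higher in 6 of 6 samples, and the call held in 15 of 15 alternatives. At 5000 UMIs per cell, an Erbb3 UMI was found in 10.1%, 8.69% and 6.62% of Myog-positive cells of young and 16.4%, 5.53% and 13.0% of those of old populations. Among Myog-negative cells the shares were 0.184%, 0.637% and 0.506%, and 0.457%, 0.494% and 2.32%. Erbb3 is also known from Schwann cells, and Sox10, which defines them, had 0 UMIs in the Myog-positive cells of each sample. Summed over 6 Schwann cell markers, the level was 1.15 to 26.3 CPM per sample.

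Egfr moved in the other direction. It had 4.11, 2.49 and 2.31 CPM in Myog-negative and 1.57, 0.818 and 1.55 CPM in Myog-positive cells of young populations. In old populations it had 23.9, 6.72 and 16.4 CPM in Myog-negative and 11.8, 3.24 and 6.53 CPM in Myog-positive cells. It was lower in Myog-positive cells of 6 of 6 samples, to between 0.329 and 0.671 of the Myog-negative level. The log2 fold change was -1.15 (SE 0.12, edgeR adjusted p = 0.000539). Each old sample lay above each young sample in both classes. This largely repeats the levels per sample that chose the genes and is a description only.

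Among the ligand genes, Ereg had the lowest fold change, -1.60 (SE 0.17, edgeR adjusted p = 0.000997). Its level went from 1.56 to 0.471 CPM in young replicate 1, and from 20.3 to 7.68, 2.80 to 0.768 and 4.49 to 1.46 CPM in old populations. The Myog-positive value of young replicate 1 rests on 3 UMIs. Young replicates 2 and 3 give no further evidence, with 2 and 0 UMIs. Areg went from 37.9, 11.9 and 4.79 to 19.0, 8.39 and 3.64 CPM in young populations and from 114, 9.25 and 38.1 to 65.0, 5.45 and 27.6 CPM in old populations. It was lower in 6 of 6 samples, by -0.64 on the log2 scale (SE 0.09, edgeR adjusted p = 0.00235). Old replicate 1 was the highest Areg sample among Myog-negative cells too, but Myog-positive cells were only 1.15% of that population. Its level there (114 CPM) therefore nearly repeats the level of the whole sample (113 CPM) and is not a separate result.

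Nrg1, Hbegf and Btc were also lower in 6 of 6 samples. Nrg1 went from 17.8, 12.6 and 31.8 to 9.11, 6.87 and 22.1 CPM in young populations and from 53.2, 22.5 and 14.2 to 34.9, 11.8 and 6.83 CPM in old populations. Its log2 fold change was -0.81 (SE 0.08, edgeR adjusted p = 0.000309). The ligand gene Nrg1 and the receptor gene Erbb3 thus differed in opposite directions. Hbegf had a fold change of -0.72 (SE 0.10) and Btc of -0.89 (SE 0.19). For Btc, Myog-positive cells held 3 UMIs in old replicate 1 and 12 in young replicate 1. In young replicate 3 the Btc classes were nearly level, at 1.41 CPM in Myog-positive and 1.53 CPM in Myog-negative cells. Tgfa was lower in 5 of 6 samples (-0.81, SE 0.22, edgeR adjusted p = 0.0198), with the exception young replicate 2 at 8 UMIs. Its Myog-positive cells held only 3 Tgfa UMIs in young replicate 1 and 2 in old replicate 1. The Tgfa call was lost without old replicate 2 (adjusted p = 0.0818) or old replicate 3 (adjusted p = 0.0739).

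Erbb2 changed least. It had 5.22, 3.80 and 10.6 CPM in Myog-negative and 8.48, 3.70 and 12.8 CPM in Myog-positive cells of young populations, and 6.63, 8.73 and 6.00 against 8.28, 9.10 and 9.14 CPM in old ones. It was higher in 5 of 6 samples, with a log2 fold change of 0.32 (SE 0.11, edgeR adjusted p = 0.0420). This call was lost in 8 of 15 alternatives, among them leaving out young replicate 1, young replicate 3 or any old replicate (edgeR adjusted p between 0.0533 and 0.165).

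**Figure D2:**
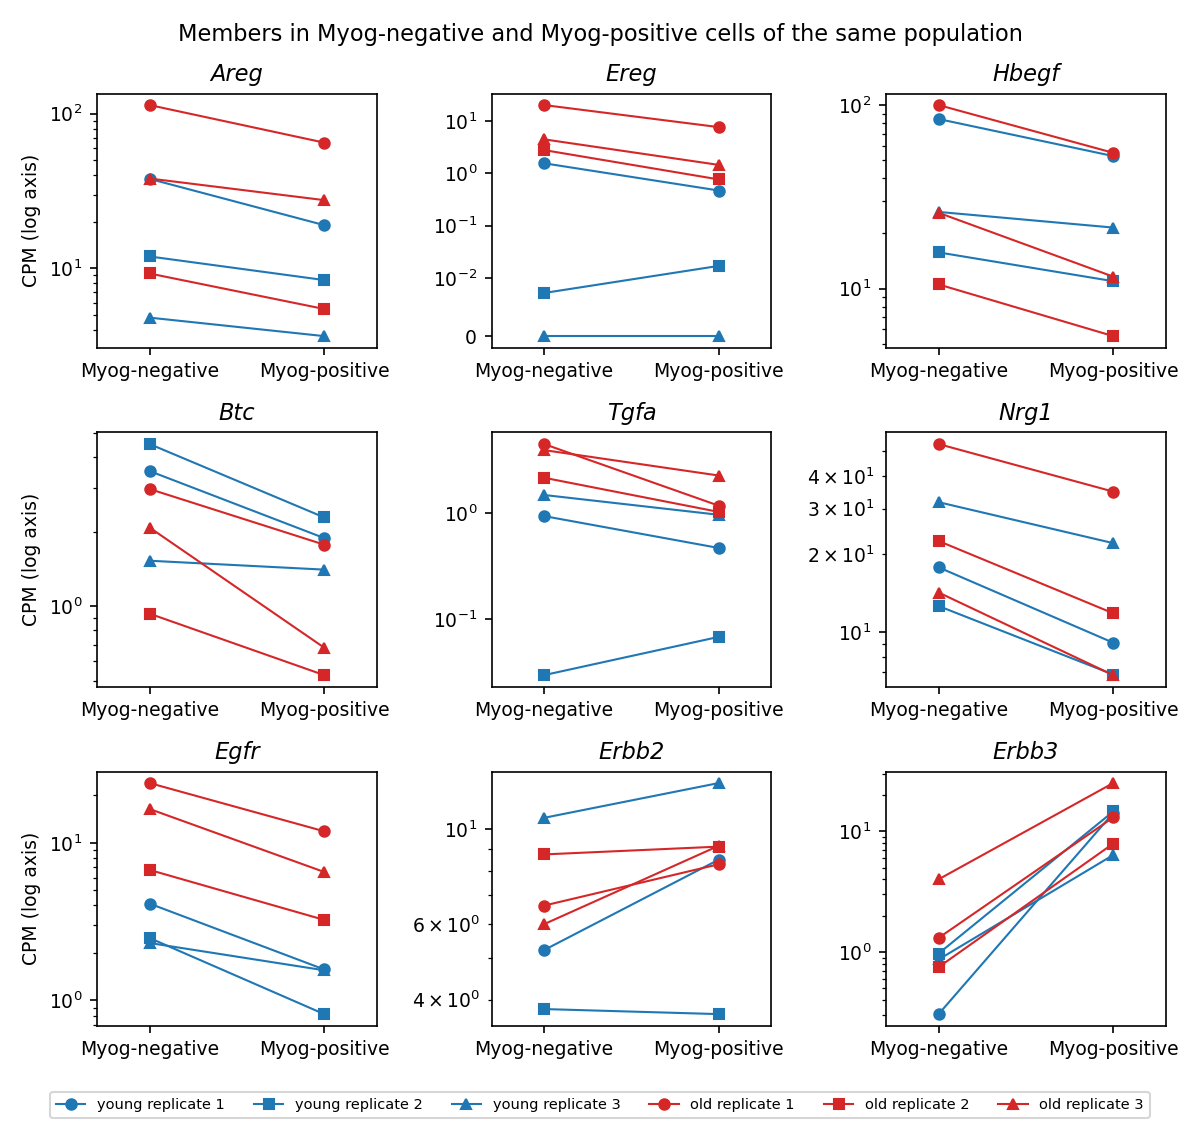
CPM of each member (logarithmic vertical axes; linear below 0.01 for Ereg and Tgfa) in Myog-negative and Myog-positive cells, with a line joining the 2 classes of each population (young blue, old red). Lines fall in 6 of 6 samples for Areg, Hbegf, Btc, Nrg1 and Egfr and rise in 6 of 6 for Erbb3.

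Cells were also split by their number of Myog UMIs. In old replicate 3, the sample with the most such cells, at 5000 UMIs per cell, Erbb3 was at 4.97, 8.06, 16.3 and 44.5 CPM in cells with 0, 1, 2 to 4 and 5 or more Myog UMIs. Egfr in the same classes was at 15.3, 9.94, 5.20 and 1.42 CPM. In cells with 5 or more Myog UMIs, Erbb3 was at 42.3, 36.9 and 85.5 CPM in young populations and 29.3 CPM in old replicate 2. Egfr had no UMI in those cells of the 3 young samples, which allows up to 4.88, 0.585 and 5.03 CPM. Nrg1 was lower in cells with 5 or more Myog UMIs than in cells with none in each of the 5 samples, for example 3.75 against 12.7 CPM in old replicate 3. Areg went from 37.0 through 35.7 and 30.2 to 19.3 CPM in old replicate 3, but from 8.52 through 2.13 and 2.29 to 6.19 CPM in old replicate 2, so that it did not fall step by step there. Erbb3 in young replicate 3 was at 1.04 CPM in cells with no Myog UMI and had 1 UMI in all cells with 1 Myog UMI. Old replicate 1 had fewer than 50 cells in each class with Myog UMIs and is not shown there.

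**Figure D3:**
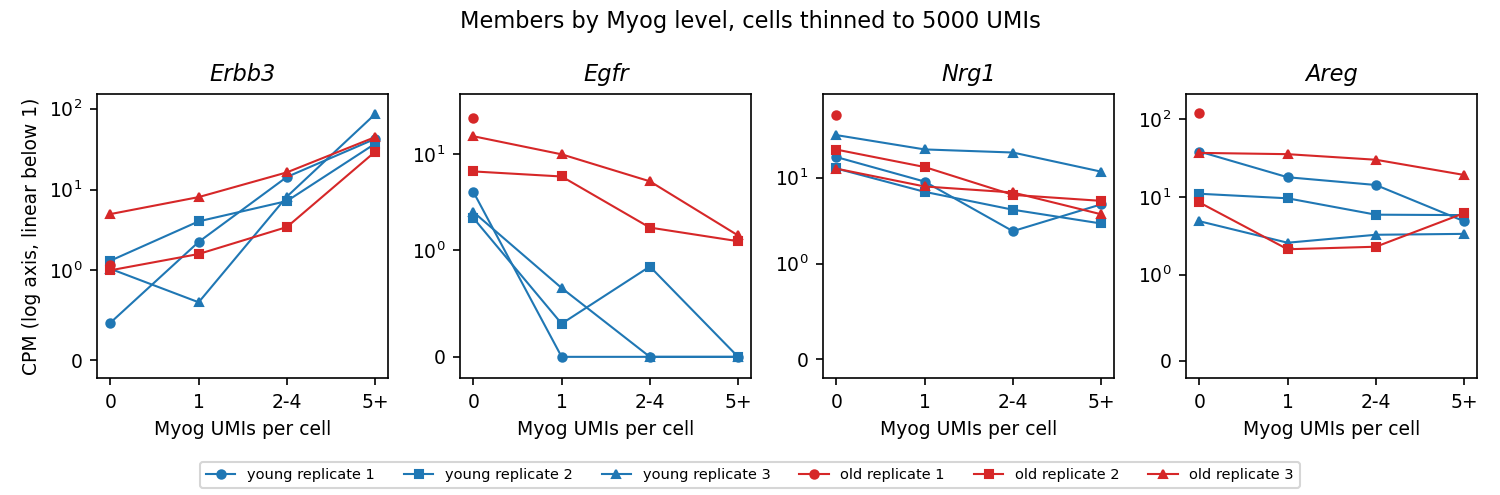
CPM of Erbb3, Egfr, Nrg1 and Areg (vertical axes logarithmic above 1 CPM, linear below) by the number of Myog UMIs per cell, all cells thinned to 5000 UMIs, with 1 line per population. Erbb3 rises from 4.97 to 44.5 CPM in old replicate 3 while Egfr falls from 15.3 to 1.42 CPM.

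Phase scores placed a smaller share in S or G2/M among Myog-positive cells in 6 of 6 samples (24.8%, 44.4% and 79.7% in young populations and 40.2%, 15.3% and 52.6% in old populations, against 51.8%, 63.8% and 82.3%, and 69.1%, 42.1% and 66.2% of Myog-negative cells). Within cells scored as G1, a comparison added after the data were seen, Erbb3 was between 8.36 and 48.9 times higher in Myog-positive cells in 6 of 6 samples. Areg, Hbegf, Btc, Nrg1 and Egfr were lower in 6 of 6 samples there too. Some of these values rest on few Myog-positive UMIs: Btc had 2 in old replicate 1 and 3 in young replicate 3. Egfr had 4 in young replicate 1, 1 in young replicate 3 and 5 in old replicate 1. Myog-positive and Myog-negative cells had similar median depths in each sample, for example 13098 and 12901 UMIs in old replicate 3.

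Other pathway genes differed between the classes as well. Counts per list are given against 18.9% of all genes called lower and 13.6% called higher. Of the 15 negative regulators, 6 were lower in Myog-positive cells and 2 higher. The dual-specificity phosphatase gene Dusp5 fell by 0.87 (SE 0.09, edgeR adjusted p = 0.000627) and the EGFR-binding Lrig1 by 0.57 (SE 0.12, adjusted p = 0.00890), while Sprouty gene Spry1 rose by 1.29 (SE 0.26, adjusted p = 0.0117). Of the 10 ERK-responsive genes, 6 were lower, led by Ier3 (-1.05, SE 0.11), Fosl1 (-0.84, SE 0.11) and Etv4 (-0.83, SE 0.13), and 2 were higher, Egr1 and Fos. The median of that list was -0.64, compared with -0.05 over all genes. Among 15 adaptors and kinases, a share near that of all genes was called: 2 were higher, with Grb2 at 0.33 (SE 0.07), and 2 lower, among them Mapk3 at -0.28. None of the 7 ligand release genes was called by edgeR, 1 had an unadjusted p under 0.05 and DESeq2 called 1, Rhbdf1, which encodes an inactive rhomboid protein (0.26, SE 0.09, edgeR adjusted p = 0.0602). Rhbdf1 passed in 6 of 15 alternatives, among them edgeR without young replicate 3 (adjusted p = 0.0323) or old replicate 1 (adjusted p = 0.0448), while Rhbdl2 was at -0.09 (SE 0.19). Of 4 other ligand and receptor genes with enough counts, the neuregulin gene Nrg2 was lower (-0.68, SE 0.17, adjusted p = 0.0164), a call lost without old replicate 2 (adjusted p = 0.0862).

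The last comparison set cells scored as S or G2/M phase against cells scored as G1 in the same population. The phase comes from scores set within each sample, with no separate measure of division, and cells scored S or G2/M are called cycling here for short. They were 50.5%, 58.1% and 82.1% of young and 68.7%, 36.1% and 58.6% of old populations, and they were deeper, with medians of 14907 against 12464 UMIs in young replicate 1. Nrg1 was higher in cycling cells of all 6 samples, Erbb3 was lower in 5 of 6, and the other members differed little or unevenly. In all, 22.8% of 13293 genes were called higher and 28.7% lower (51.5%, edgeR), and 2 members were called higher and 1 lower, a smaller share than over all genes.

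Nrg1 had 14.0, 7.75 and 25.2 CPM in non-cycling and 20.2, 12.7 and 31.6 CPM in cycling cells of young populations. In old populations it had 45.1, 17.2 and 7.03 against 56.0, 24.5 and 11.5 CPM. The ratio lay between 1.24 and 1.64 and the log2 fold change was 0.51 (SE 0.06, edgeR adjusted p = 0.000158). Among cells without a Myog UMI it was also higher in 6 of 6 samples.

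Areg was higher in cycling cells of 4 samples and close to level in the others. It had 25.9, 7.96 and 4.99 CPM in non-cycling and 46.3, 12.5 and 4.61 CPM in cycling cells of young populations, and 116, 4.62 and 22.7 against 112, 14.3 and 37.3 CPM in old ones. In old replicate 1, the sample with the most Areg, the classes were nearly equal. The log2 fold change of 0.62 (SE 0.21, edgeR adjusted p = 0.0441) just passed the threshold. It was lost in 8 of 14 alternatives, among them leaving out young replicate 1, young replicate 2, old replicate 2 or old replicate 3 (edgeR adjusted p between 0.0503 and 0.104).

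Erbb3 was at 1.61, 9.67 and 3.58 CPM in non-cycling and 0.427, 2.47 and 1.13 CPM in cycling cells of young populations. In old populations it was at 0.799, 3.37 and 24.9 against 1.68, 0.922 and 11.4 CPM, so old replicate 1 was the exception. The log2 fold change was -1.32 (SE 0.37, edgeR adjusted p = 0.0206). The call was lost without young replicate 2, young replicate 3 or old replicate 2 (adjusted p between 0.0591 and 0.0667), without the low-count filter (adjusted p = 0.0603) and without the sample as a block (adjusted p = 0.779). Among cells without a Myog UMI, a comparison added after the data were seen, it turned to 0.36 (SE 0.30, adjusted p = 0.340), with 3 samples higher and 3 lower. Egfr (0.34, SE 0.16, edgeR adjusted p = 0.0969) missed the threshold, which it passed without young replicate 3 (adjusted p = 0.00716). Ereg, Hbegf, Btc, Tgfa and Erbb2 had log2 fold changes between -0.17 and 0.26 and were not called. Among cells without a Myog UMI, Btc was called lower in cycling cells (-0.33, SE 0.10, edgeR adjusted p = 0.0183), in 6 of 6 samples.

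**Figure D4:**
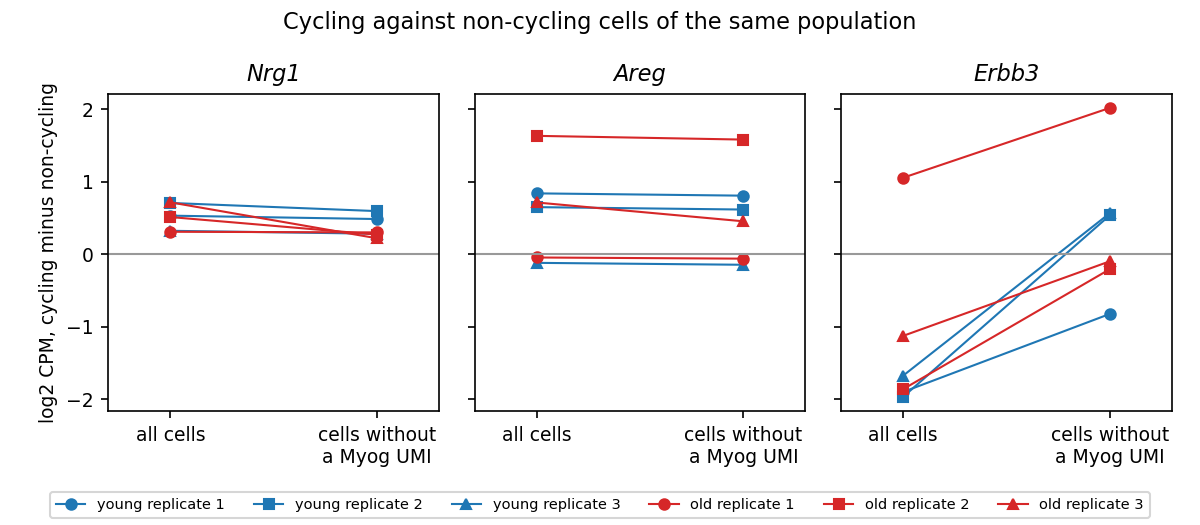
Difference in log2 CPM between cycling and non-cycling cells of each population (vertical axis) for Nrg1, Areg and Erbb3, in all cells and in cells without a Myog UMI (young blue, old red). Nrg1 is above 0 in 6 of 6 samples in both sets, whereas Erbb3 lies below 0 in 5 of 6 samples in all cells and in 3 of 6 in cells without a Myog UMI.

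Among other pathway genes, whose counts stand beside 28.7% of all genes called lower and 22.8% called higher, 7 of the 15 negative regulators were lower in cycling cells and 0 higher, led by Spry1 (-0.88, SE 0.09, edgeR adjusted p = 6.68e-05), Lrig2 (-0.42, SE 0.07) and the ubiquitin ligase gene Cblb (-0.39, SE 0.05). Of 10 ERK-responsive genes 4 were higher, with Etv4 at 0.76 (SE 0.20) and Fosl1 at 0.69 (SE 0.12), and 2 lower, with Egr1 at -0.67 (SE 0.08). Adaptors and kinases were called in both directions, 4 higher and 4 lower, the latter with Grb2 at -0.32 (SE 0.07) and Shc1 at -0.26 (SE 0.06). Of 7 ligand release genes 3 were lower, Rhbdl2 (-0.43, SE 0.13), Rhbdf1 (-0.29, SE 0.06) and Adam9 (-0.18, SE 0.05). The Rhbdl2 call was lost in 5 of 14 alternatives, among them leaving out young replicate 3, old replicate 1 or old replicate 2 (edgeR adjusted p between 0.0565 and 0.0724). None of 4 other ligand and receptor genes was called by edgeR or DESeq2, with 0 at an unadjusted p under 0.05. Erbb4 had -0.22 (SE 0.18) and Nrg4 -0.19 (SE 0.28).

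**Figure D5:**
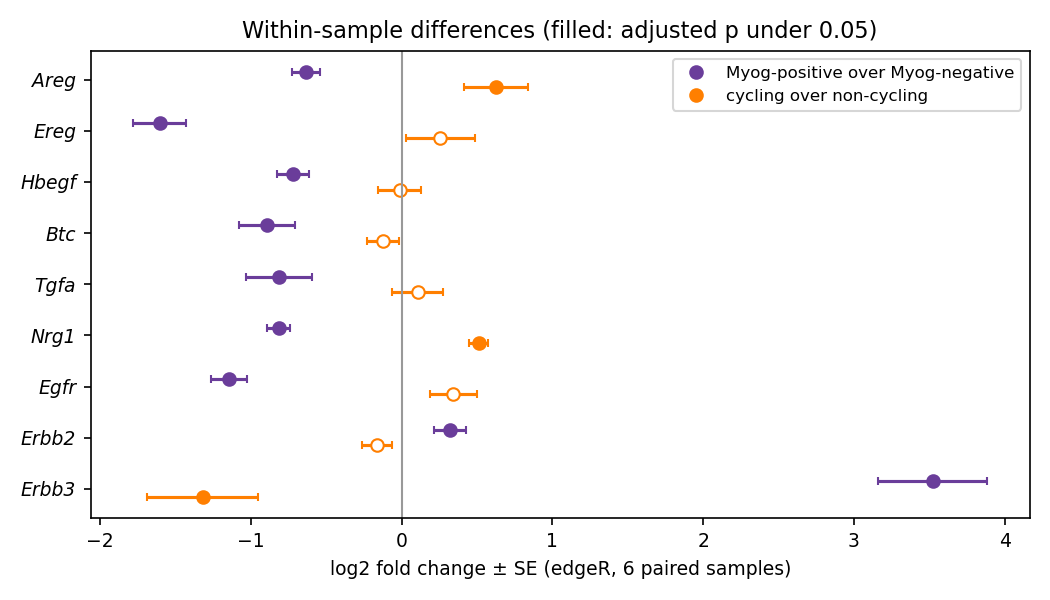
Log2 fold changes with standard errors (horizontal axis) from the paired fits over 6 samples, for Myog-positive over Myog-negative cells (purple) and cycling over non-cycling cells (orange); filled points have an edgeR adjusted p under 0.05. Erbb3 is at 3.52 and -1.32, Nrg1 at -0.81 and 0.51, and Egfr at -1.15 and 0.34.

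Without the sample as a block, the spread between populations enters the test, and of the member calls in both contrasts 1 remained, Erbb3 in the Myog contrast (3.36, SE 0.60, edgeR adjusted p = 0.0276). Whether these within-population differences depended on age was tested as an interaction over all genes. Neither contrast had a called gene (edgeR, 0 of 13577 and 0 of 13293). The members with the smallest p were Hbegf in the Myog contrast (-0.49, SE 0.14, edgeR adjusted p = 1.00) and Tgfa in the cycling contrast (0.67, SE 0.30, edgeR adjusted p = 1.00). No member's difference between old and young samples passed the threshold in either contrast, which does not show that the differences are equal.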

How the data were processed

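The authors deposited, for each of 6 samples, a matrix of UMI counts per gene and cell in the 10x format, produced by Cell Ranger, whose version is 7.0.0 in some and 7.2.0 in other file headers, on mm10 per the submitters' processing notes. The notes also name Seurat 5.134, whose output was not used here. The 9 members and all gene lists were chosen with earlier results of these data known.

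Cells with at least 1000 UMIs, 500 genes and less than 15% mitochondrial UMIs were kept, and 1348 of them lie under 5000 UMIs and drop out where cells were thinned to that depth. Doublets were not called. An alternative leaves out the top 8% of cells by UMIs. Counts were summed per sample, or per sample and class of cells, and tested with edgeR 4.0.16 in R 4.3.3 (quasi-likelihood, TMM scaling, filterByExpr, robust), with Benjamini-Hochberg adjustment over all genes and calls at an adjusted p under 0.05. The age fit had a term for the gene list, and the fits within samples had the sample as a block, since both classes come from 1 culture. All 9 members passed the low-count filter in each fit, Ereg in spite of 2 and 0 UMIs in 2 young samples. Cell cycle phase came from scanpy 1.11.5 scores per sample, with 42 S and 51 G2/M genes that were left out of that test. DESeq2 1.42.0, other scaling, filters, depths, class rules and left-out samples were alternatives. The code was tested on simulated data.

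Named were all members and, from each pathway list, up to 3 called genes with the largest absolute fold change, or the 2 largest where none was called. Likeness to Areg took the 6 genes with the highest r over samples, among genes with 5 or more CPM in a sample, and the 10 highest over cells, among genes in 5% or more of them. Other genes named in a count are added for completeness. Not every gene that this rule names is reported here. Depth ran from 133683424 to 196258384 UMIs per sample. Shares carry exact Clopper-Pearson 95% intervals, and a count of 0 allows 3 UMIs, or cells. Nothing in the labels says that the samples of a group share a culture or mouse. In the age fit, p-values measure the spread between these 6 populations, which may in part be technical. In the fits with the sample as a block, they measure only how the within-sample differences vary over the populations.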

Additional observations from a re-analysis of the deposited data

Results flagged for a closer look

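Chance alone flags about 1 in 20 groups of this size, so the following are given as values. Among the 6 log2 differences of Hbegf between cycling and non-cycling cells, old replicate 2 lay far above the others at 0.83 (7.21 CPM in non-cycling and 12.8 CPM in cycling cells), whereas the next highest sample was at 0.06. Among those of Erbb3, old replicate 1 stood apart at 1.05 (0.799 and 1.68 CPM), whereas the next highest sample was at -1.12. That sample held 218 Erbb3 UMIs in all its cells.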

How the results depend on the processing

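Between old and young, edgeR called 1 gene, DESeq2 219, and leaving out 1 sample gave 0 to 3 (0 without young replicate 1 or old replicate 1, 3 without young replicate 3). edgeR had no call (0) when the gene list term was dropped and when the longer list was fitted by itself (501 and 998 at an unadjusted p under 0.05). Leaving out young replicate 1 or old replicate 1 is in effect the longer-list fit, since the gene list term takes up the other sample. These are therefore not separate checks. The labels do not say whether the replicate numbers pair the samples. Deviations of same-numbered samples correlated at 0.41, 0.32 and -0.13, and those of other pairs at -0.52 to 0.37, which does not settle it. With the replicate block edgeR called 1 gene. In the Myog contrast 4414 genes were called, 2656 to 4830 with 1 sample left out (2656 when old replicate 3 was left out, 2747 for old replicate 2, 2938 for young replicate 1), and 78 with no replicate block, that is without the sample as a block. In the cycling contrast 6848 genes were called and 482 with no replicate block. The other alternatives stayed within 1.5 times of these counts. Signs turned in some cases: leaving out 1 sample gave -0.16 to 0.089 for Rhbdl2 in the Myog contrast, -0.045 to 0.43 for Ereg, -0.16 to 0.068 for Hbegf and -0.016 to 0.23 for Tgfa in the cycling contrast, and -1.91 to 0.93 for Adam12, -1.004 to 0.56 for Etv4, -0.41 to 0.77 for Nrg1, -0.20 to 0.60 for Erbb2 and -0.19 to 1.66 for Erbb3 between ages. Without the low-count filter Hbegf was at 0.0052, and in cells without a Myog UMI Tgfa was at -0.11, Erbb3 at 0.36 and Btc at -0.33 (called there, against -0.12 and not called in all cells) in the cycling contrast. The cause was not tested. With a class rule of 2 or more Myog UMIs old replicate 1 had too few cells and was left out. Few UMIs limit the precision of Ereg and Tgfa in young replicate 2 (2 and 8 UMIs), the sample with the most UMIs, and of Egfr at high Myog levels.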
